A study of Mus musculus with 16 samples.

Results

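Pecam1, Alpk3, Ppfibp2, Slc52a3, Pla2g7 and Pde1c were 6 of the 53465 genes in the count table. They were chosen because each was called lower in group 2 innate lymphoid cells (ILC2) of Il25 KO mice than of WT mice and none lies on chromosome 14, which carries Il25, or chromosome 10, which carries the Arg1 reporter. The choice used the measured counts of the Il25 KO and WT libraries, so their difference between those genotypes is described here and not tested. By edgeR's quasi-likelihood test with Benjamini-Hochberg adjustment over 11742 genes, 33 genes were called lower in Il25 KO, and 21 of them lay outside chromosomes 10 and 14. The 6 genes were among these 21, and the other 15 are not described here except where named. Among lower genes outside those chromosomes, Ms4a6b was the last called under the threshold of 0.05, with an adjusted p of 0.0454 by that test. The first not called, 6530402F18Rik, had 0.0591.

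The ILC2 came from the duodenum of untreated, specific-pathogen-free C57BL/6 mice aged 6 to 10 weeks, in 4 genotypes of 4 libraries each. Il25 KO mice were Il25 (-/-) with Arg1Yarg/Yarg, a fluorescent reporter allele of Arg1, and with Il13 smart13/smart13, a reporter allele of Il13. St2 KO mice were St2 (-/-) and carried both reporter alleles as well. Alox5 KO mice were Alox5 (-/-) and carried Il13 smart13/smart13 without the Arg1 allele, and the WT controls were wild type B6 mice with Il13 smart13/smart13. The Il25 deletion and the Arg1 allele therefore cannot be told apart in Il25 KO against WT, while St2 KO shares the Arg1 allele with Il25 KO. No label says whether each library is a mouse of its own, and the p-values therefore cover only the spread from library to library. Which markers were gated in the sort is not given in the sources used here.

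ILC2 are tissue-resident lymphocytes that answer signals from the epithelium with type 2 cytokines such as IL-5 and IL-13. In the small intestine the cytokine IL-25 is made by tuft cells and is sensed by ILC2 through a receptor of IL-17RB and IL-17RA. IL-33 reaches the same cells through ST2, encoded by Il1rl1, and leukotrienes, whose synthesis starts with the Alox5 product 5-lipoxygenase, reach them through G protein-coupled receptors. The 6 genes belong to different families: an adhesion receptor (Pecam1), an intracellular scaffold (Ppfibp2), a protein of the alpha kinase family (Alpk3), a vitamin transporter (Slc52a3), a secreted lipase (Pla2g7) and a cyclic nucleotide phosphodiesterase (Pde1c).

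Total counts per library ranged from 2086864 to 3216937, and levels are given in CPM, which scales each count to its library total. All 14 ILC2 markers passed the filter on low counts. Their summed level was 7668 to 8389 CPM in Il25 KO and 7093 to 7994 CPM in St2 KO. It was 7656 to 9108 CPM in Alox5 KO and 7799 to 8185 CPM in WT. A sum does not show the level of each marker or the purity of the cells. The sample codes TS, TT and TY split the libraries into sets. TS held libraries 1 and 2 of every genotype, TT held libraries 3 and 4 of Alox5 KO and WT, and TY held those of Il25 KO and St2 KO; no label explains the letters. Xist, the X-inactivation RNA, reached 982 to 1682 counts in the 4 TY libraries and at most 7 in the other 12, so TY was read as female, and set and sex cannot be told apart. Il25 itself had no count in any library, so the deletion cannot be checked from these counts. Il1rl1 had 125.6 to 208 CPM in St2 KO and 169 to 246 CPM in WT, and whole-gene counts do not show a partial deletion, while Alox5 had 4.78 to 11.98 CPM in Alox5 KO and 75.97 to 145 CPM in WT. A change in this sorted bulk RNA cannot tell fewer cells of a type from less RNA per cell.

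The 6 genes lay on 5 chromosomes of GRCm38. Pecam1 (ENSMUSG00000020717) is at chr11:106654217-106750628 on the minus strand, Slc52a3 (ENSMUSG00000027463) at chr2:151996511-152009258 on the plus strand, and Pla2g7 (ENSMUSG00000023913) at chr17:43568098-43612201 on the plus strand. Pde1c (ENSMUSG00000004347) is at chr6:56069804-56569103 on the minus strand. Alpk3 (ENSMUSG00000038763, chr7:81057600-81105612) and Ppfibp2 (ENSMUSG00000036528, chr7:107595207-107748583) share the plus strand of chromosome 7 but are 26.5 Mb apart. All are protein-coding. Genes that overlap them had between 0 and 6 counts in all 16 libraries together, so these unstranded counts hold few reads that could belong to an overlapping gene.

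RefSeq (GRCm38.p6) had promoter windows for 4 of the 6 genes, 9 windows in all because Pde1c and Ppfibp2 have several starts. The 250 bases before the start are shown for Alpk3 and Pla2g7, which fell to a few percent of WT or less, and for the first start of Ppfibp2 and a start of Pde1c, which fell by degrees. They run 5′ to 3′ on the gene's strand, and capitals mark the searched letters wherever they occur.
Alpk3, chr7:81057350-81057599, plus strand: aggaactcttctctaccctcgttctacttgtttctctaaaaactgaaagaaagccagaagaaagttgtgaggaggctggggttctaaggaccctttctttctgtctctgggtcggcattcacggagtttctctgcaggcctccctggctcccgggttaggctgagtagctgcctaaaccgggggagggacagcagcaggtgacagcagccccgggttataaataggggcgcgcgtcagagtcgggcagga
Pla2g7, chr17:43568201-43568450, plus strand: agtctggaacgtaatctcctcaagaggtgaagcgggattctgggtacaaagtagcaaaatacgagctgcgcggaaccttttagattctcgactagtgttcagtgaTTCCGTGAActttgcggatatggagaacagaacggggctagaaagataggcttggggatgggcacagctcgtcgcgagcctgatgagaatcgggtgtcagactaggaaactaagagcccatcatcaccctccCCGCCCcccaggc
Ppfibp2, chr7:107594801-107595050, plus strand: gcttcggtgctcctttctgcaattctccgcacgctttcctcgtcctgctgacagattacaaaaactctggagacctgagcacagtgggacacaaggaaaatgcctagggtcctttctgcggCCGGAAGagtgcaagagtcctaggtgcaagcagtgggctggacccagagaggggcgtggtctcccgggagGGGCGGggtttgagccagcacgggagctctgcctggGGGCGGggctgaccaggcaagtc
Pde1c, chr6:56369635-56369884, minus strand: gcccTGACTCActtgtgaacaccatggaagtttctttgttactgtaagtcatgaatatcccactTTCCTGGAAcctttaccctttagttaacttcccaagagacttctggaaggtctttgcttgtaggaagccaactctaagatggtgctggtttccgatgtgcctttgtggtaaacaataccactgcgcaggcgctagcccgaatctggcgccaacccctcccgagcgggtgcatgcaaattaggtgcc
Letters for 7 motifs were searched on both strands. No searched letters occur in the Alpk3 window. The Pla2g7 window holds the STAT letters TTCNNNGAA and, on the other strand, the SP/KLF letters GGGCGG. The Ppfibp2 window shown holds the ETS letters CCGGAAG and 2 copies of GGGCGG. The Pde1c window shown holds the AP-1 letters TGANTCA and the STAT letters, while the other Pde1c windows hold none of the searched letters. Of the 9 windows, 2 held the STAT letters, 2 the ETS letters, 2 GGGCGG, 1 the AP-1 letters and 1 the GATA letters TGATAA, while none held AGATAA or the E-box letters CACGTG. Among all 32851 RefSeq windows of this length, 7.02% held the STAT letters, 6.91% the ETS letters, 32.7% GGGCGG, 6.75% the AP-1 letters, 7.94% TGATAA, 9.99% AGATAA and 6.02% CACGTG. No set of letters was shared by all 4 genes. A match describes the sequence and is not a binding site.

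The loss in Il25 KO took 2 forms. Alpk3, Slc52a3 and Pla2g7 were nearly absent, with under 10% of the WT mean in each of the 4 Il25 KO libraries, whereas Pecam1 and Pde1c were above that share in every Il25 KO library and Ppfibp2 in all but library 2. Each of the 6 genes had all 4 Il25 KO libraries below all 4 WT libraries, as did 4.23% of all tested genes; this follows from how they were chosen. Among 9478 tested genes with a WT mean of at least 10 CPM, a limit set after the values were seen, 8 (0.0844%) were nearly absent in Il25 KO by the same measure. Besides the 3 named genes these were Arg1, Acoxl, Ccl3, Hmgb1-ps8 and Gm43305. In the other knockouts, 0.0844% of these genes were nearly absent in St2 KO and 0.0317% in Alox5 KO, and none of the 6 genes was among them.

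**Figure D1:**
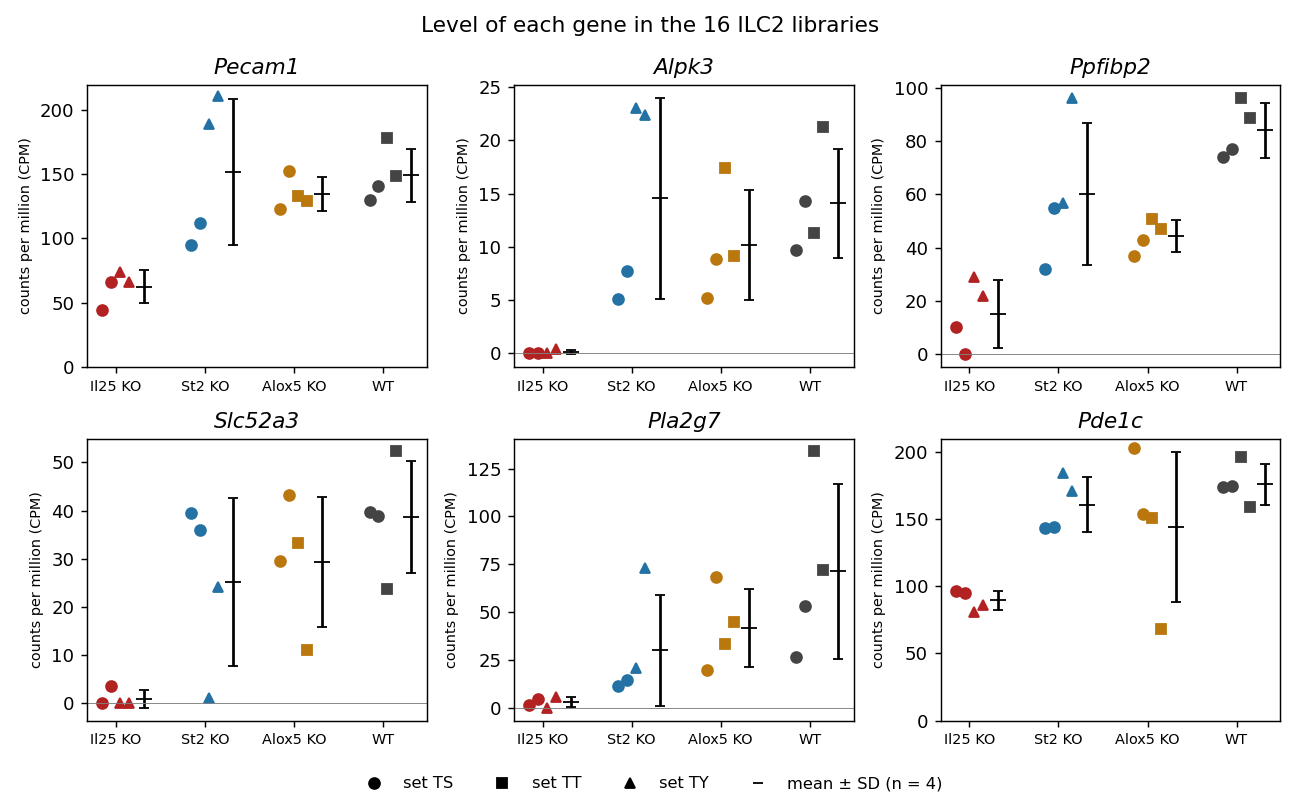
Level of each gene in CPM in every library, by genotype (4 libraries each, marker shape by sample-code set), with the mean and SD beside the points. Alpk3, Slc52a3 and Pla2g7 sit at 5.75 CPM or below in all Il25 KO libraries, and Pde1c stays at 80.6 CPM or above.

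Alpk3 encodes an alpha kinase family protein known mainly from heart and skeletal muscle. It had 0, 0, 0 and 0.359 CPM in Il25 KO libraries 1 to 4, against 9.66, 14.3, 11.3 and 21.2 CPM in WT libraries 1 to 4. The Il25 KO values rest on 1 count in library 4, and 0 counts in a library of this depth allow up to 1.22 CPM (3 counts). Summed over libraries, Il25 KO had 1 count and WT 144, so Il25 KO held 0.665% of the WT level (95% exact interval 0.0167% to 3.77%, counting error only). St2 KO had 5.06, 7.77, 23.0 and 22.4 CPM, and Alox5 KO had 5.18, 8.89, 17.5 and 9.10 CPM. Every library of St2 KO and Alox5 KO was above every Il25 KO library, and their ranges overlapped those of WT. Alpk3 was also the least abundant of the 6 in WT per exon length, at 2.19 ± 0.795 RPKM (CPM per kilobase of exon; SD, n = 4).

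Slc52a3 encodes a membrane transporter of riboflavin, the vitamin from which flavin cofactors are made. It had 0, 3.67, 0 and 0 CPM in Il25 KO libraries 1 to 4, against 39.8, 38.9, 23.7 and 52.3 CPM in WT libraries 1 to 4. All 10 Il25 KO counts were in library 2. The summed level was 2.42% of WT (95% exact interval 1.15% to 4.51%, counting error only). St2 KO had 39.5, 36.1, 1.10 and 24.1 CPM, and Alox5 KO had 29.5, 43.3, 33.3 and 11.02 CPM. St2 KO library 3, with 3 counts, fell below the highest Il25 KO library, so the Il25 KO and St2 KO ranges overlapped for this gene. Alox5 KO library 4 was also low, although it remained above all Il25 KO libraries.

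Pla2g7 encodes a secreted phospholipase that inactivates platelet-activating factor, and is known mainly from macrophages. It had 1.44, 4.77, 0 and 5.75 CPM in Il25 KO libraries 1 to 4, against 26.3, 53.2, 134 and 71.9 CPM in WT libraries 1 to 4. WT itself spread widely, and yet its lowest library was well above the highest Il25 KO library. The summed level in Il25 KO was 4.28% of WT (95% exact interval 2.93% to 6.07%, counting error only). This interval leaves out the spread between libraries. St2 KO had 11.5, 14.6, 20.8 and 72.9 CPM, and Alox5 KO had 19.9, 68.4, 33.3 and 45.0 CPM. Thus 3 of the 4 St2 KO libraries lay below all WT libraries and above all Il25 KO libraries, while library 4 was close to the WT mean. Summed levels were 41.3% of WT in St2 KO and 58.2% of WT in Alox5 KO.

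Ppfibp2 encodes liprin beta 2, a scaffold protein that binds other liprins. It had 10.1, 0, 28.9 and 21.9 CPM in Il25 KO libraries 1 to 4, against 74.2, 77.1, 96.3 and 88.7 CPM in WT libraries 1 to 4. The Il25 KO libraries ranged from 0% to 34.4% of the WT mean, the widest spread of the 6 genes on this scale. St2 KO had 32.0, 55.0, 57.0 and 96.3 CPM, and Alox5 KO had 37.0, 42.9, 50.8 and 47.0 CPM. All 4 Alox5 KO libraries were below all WT libraries too, as in 2.08% of tested genes, and above all Il25 KO libraries.

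Pecam1 encodes CD31, an immunoglobulin-family adhesion receptor of endothelium, platelets and leukocytes whose cytoplasmic tail carries inhibitory motifs. It had 44.3, 65.7, 74.1 and 65.7 CPM in Il25 KO libraries 1 to 4, against 129.8, 140.4, 178 and 149 CPM in WT libraries 1 to 4. Its Il25 KO libraries held 29.7% to 49.7% of the WT mean. St2 KO had 95.1, 112, 188 and 211 CPM, and Alox5 KO had 123, 153, 133 and 129 CPM. Every Il25 KO library was below all 12 others, and the St2 KO libraries fell into a lower TS pair and a higher TY pair.

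Pde1c encodes a phosphodiesterase that is activated by calcium and calmodulin and breaks down cAMP and cGMP. It had 96.2, 95.02, 80.6 and 86.2 CPM in Il25 KO libraries 1 to 4, against 174, 175, 196 and 159 CPM in WT libraries 1 to 4. The Il25 KO libraries were close together, at 45.8% to 54.6% of the WT mean. St2 KO had 144, 144, 185 and 171 CPM, and Alox5 KO had 203, 154, 151 and 68.5 CPM. Alox5 KO library 4 was the lowest of all 16, below every Il25 KO library, and the other 11 libraries outside Il25 KO were above all Il25 KO libraries.

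**Figure D2:**
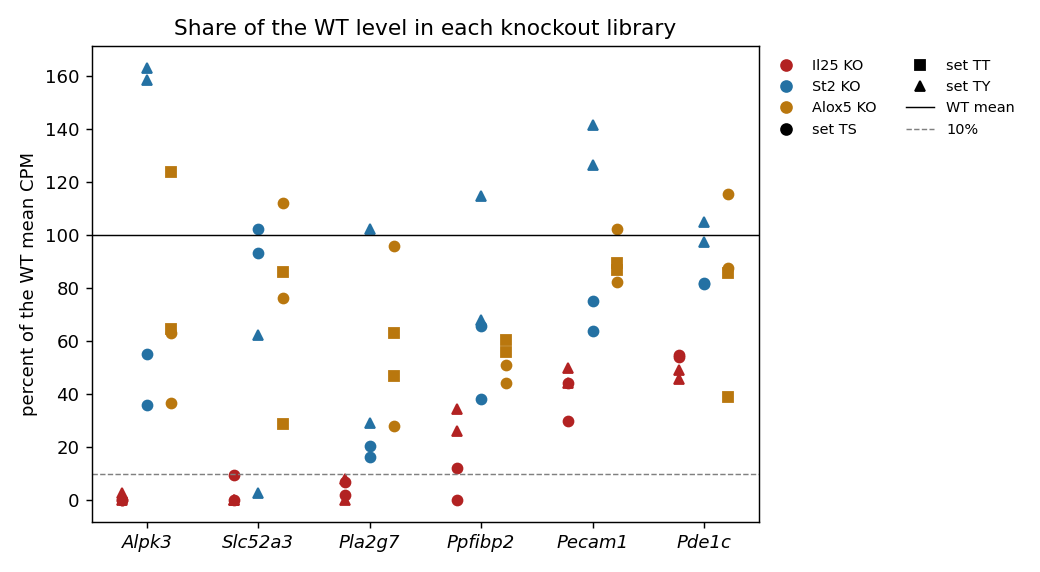
Level of each gene in each knockout library as a percentage of the WT mean CPM, coloured by genotype with marker shape by sample-code set; the dashed line is 10% and the solid line is the WT mean. The Il25 KO points of Alpk3, Slc52a3 and Pla2g7 lie under the dashed line, and those of Pde1c between 45.8% and 54.6%.

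Il25 KO had the lowest mean of the 4 genotypes for all 6 genes. Low Il25 KO values against WT chose these genes, so this order is a description. In mean CPM ± SD over 4 libraries, Pecam1 had 62.5 ± 12.7 in Il25 KO, against 149 ± 20.5 in WT, and Pde1c had 89.5 ± 7.41 in Il25 KO, against 176 ± 15.3 in WT. Ppfibp2 averaged 15.2 ± 12.8 CPM in Il25 KO, with 60.1 ± 26.7 in St2 KO, 44.4 ± 5.88 in Alox5 KO and 84.1 ± 10.3 in WT. For the other three, the Il25 KO means were 0.0898 ± 0.180 CPM (Alpk3), 0.917 ± 1.83 CPM (Slc52a3) and 2.99 ± 2.71 CPM (Pla2g7), against WT means of 14.1 ± 5.12 CPM (Alpk3), 38.7 ± 11.7 CPM (Slc52a3) and 71.3 ± 45.8 CPM (Pla2g7). Above Il25 KO, each neighbouring pair of genotype means had overlapping ranges for every gene.

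Measured against all 12 libraries of the other genotypes, the 4 Il25 KO libraries were lowest for Pecam1, Alpk3, Ppfibp2 and Pla2g7, which is 4 of the 6 genes beside 0.494% of all tested genes. Slc52a3 and Pde1c each missed this by 1 library, St2 KO 3 and Alox5 KO 4. Against St2 KO alone, which shares both reporter alleles with Il25 KO, 5 of the 6 genes were apart, beside 3.33% of tested genes, and against Alox5 KO alone 5 of the 6 were apart, beside 3.62%. These counts share the Il25 KO libraries with the choice of genes and are a description.

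The levels were also read within the sample-code sets. In set TS, with 2 libraries per genotype, Il25 KO means were 40.7% of WT for Pecam1, 54.9% for Pde1c, 6.67% for Ppfibp2, 7.81% for Pla2g7, 4.66% for Slc52a3 and 0% for Alpk3. Against St2 KO in the same set, they were 53.1% for Pecam1, 66.5% for Pde1c, 11.6% for Ppfibp2, 23.8% for Pla2g7, 4.86% for Slc52a3 and 0% for Alpk3. In set TY, where St2 KO is the only other genotype, Il25 KO means were 35.0% of St2 KO for Pecam1, 46.8% for Pde1c, 33.2% for Ppfibp2, 6.13% for Pla2g7, 0.792% for Alpk3 and 0% for Slc52a3. For all 6 genes both Il25 KO libraries were below both libraries of the genotype compared in each of these 3 comparisons. Of all tested genes, 20.2% were so placed against WT in TS, 22.5% against St2 KO in TS and 22.1% against St2 KO in TY. Low Il25 KO values chose the 6 genes, so these counts are a description.

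In the model of genotype and set, 49 genes (0.417%) passed in Il25 KO against WT, 33 of them (0.281%) lower, and the 6 genes were chosen from those. Their log2 fold changes of Il25 KO over WT were -1.14 ± 0.225 for Pde1c, -1.56 ± 0.193 for Pecam1, -2.97 ± 0.391 for Ppfibp2, -4.85 ± 0.870 for Slc52a3 and -5.07 ± 0.881 for Pla2g7 (± SE). The fitted value of Alpk3 rests on 1 count and is replaced by the ratio above. When set TS was fitted alone none of the 6 genes passed, and when only the Il25 KO and WT libraries were fitted 1 passed, Ppfibp2, although every sign was the same. The Pla2g7 value was -3.64 in set TS alone and -3.63 with only those genotypes, and the Ppfibp2 value was -3.85 in both. Pla2g7 had -4.49 with no set term, -5.77 without Il25 KO library 2 and -4.35 without St2 KO library 4. The Slc52a3 value was -9.03 without Il25 KO library 2, which holds all of its Il25 KO counts, and -4.13 without Il25 KO library 1, where that gene no longer passed. Pde1c no longer passed without any 1 of Il25 KO libraries 1 and 4, St2 KO libraries 1 and 2 and WT library 2.

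Neither genotype in St2 KO against Alox5 KO chose the genes. Its set terms were estimated partly from Il25 KO and WT libraries, so the comparison is not independent of that choice. There, 57 of all tested genes passed (0.485%) and none of the 6 did, with adjusted p between 0.517 and 0.960 by edgeR's quasi-likelihood test with Benjamini-Hochberg adjustment. The model shares its set and spread estimates with all 16 libraries. The log2 fold change of St2 KO over Alox5 KO was -0.07 for Pde1c, with a 95% interval of -0.52 to 0.38, and -0.23 for Pecam1, with an interval of -0.60 to 0.15. Ppfibp2 had -0.06, with an interval of -0.79 to 0.66. For Alpk3 (-0.35, interval -1.52 to 0.83), Slc52a3 (0.17, interval -0.78 to 1.12) and Pla2g7 (-1.17, interval -2.61 to 0.27) differences of 2-fold in at least 1 direction remain within the interval. With no set term 5 of the 6 values had the other sign, at 0.14 for Pecam1, 0.46 for Alpk3, 0.41 for Ppfibp2, 0.12 for Pde1c and -0.24 for Slc52a3, and Pla2g7 had -0.51. Pla2g7 had -0.22 without Alox5 KO library 2, -1.79 in set TS alone and -1.78 with only these genotypes. The sign of Ppfibp2 also turned in those fits (0.11 in both) and without Il25 KO library 2 (0.05) or St2 KO library 1 (0.08), and that of Pde1c without Alox5 KO library 1 (0.16) or St2 KO library 2 (0.01).

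St2 KO and Alox5 KO were each also set beside the WT libraries that the choice of genes had used, so these values are a description. In Alox5 KO against WT 0.102% of tested genes passed, and in St2 KO against WT 0.298% did, with none of the 6 genes in either. The log2 fold changes of all 6 were below 0 in both, but for Pecam1 and Alpk3 in St2 KO they were 0.01 and 0.02 without the set term, and for Slc52a3 in St2 KO the value was 0.29 with DESeq2. Ppfibp2 had -0.97 ± 0.323 in St2 KO over WT and -0.91 ± 0.254 in Alox5 KO over WT. Pla2g7 had -1.87 ± 0.656 in St2 KO over WT and -0.70 ± 0.404 in Alox5 KO over WT, with -1.28 in St2 KO without the set term and -1.31 in Alox5 KO without its library 2.

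The sample-code sets were compared next. In TY over TS, which is estimated from Il25 KO and St2 KO libraries, 16 tested genes passed (0.136%). The Il25 KO libraries also chose the 6 genes, so this contrast is not independent of that choice. None of the 6 passed, although 5 had an unadjusted p under 0.05 by edgeR, as did 1108 of all tested genes. Pecam1 was nearest, at 0.73 ± 0.153 on the log2 scale (adjusted p = 0.0623 by edgeR's quasi-likelihood test with Benjamini-Hochberg adjustment). Over 21 alternative fits its adjusted p ran from 0.00707 to 0.268, and it passed without Il25 KO library 2 (0.89) and with DESeq2 (0.66, adjusted p = 0.0206). The St2 KO libraries had 188 and 211 CPM of Pecam1 in TY, against 95.1 and 112 CPM in TS. Il25 KO had 74.1 and 65.7 CPM in TY, against 44.3 and 65.7 CPM in TS.

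Alpk3 (1.82 ± 0.473, adjusted p = 0.159 by edgeR's quasi-likelihood test) and Ppfibp2 (1.11 ± 0.304, adjusted p = 0.172) had positive values in TY over TS as well, and Slc52a3 a negative one (-1.60 ± 0.586, adjusted p = 0.318). With 1 Alpk3 count in all Il25 KO libraries, the Alpk3 value rests on St2 KO. There Alpk3 had 5.06 and 7.77 CPM in TS and 23.0 and 22.4 CPM in TY. Slc52a3 had -5.05 without St2 KO library 4, -0.76 without St2 KO library 3 and -2.55 with DESeq2. Pla2g7 had 1.64 ± 0.672, with 0.53 without St2 KO library 4 and 0.94 with DESeq2, and Pde1c had 0.11 ± 0.184. The difference between Il25 KO and St2 KO in this set contrast was tested as an interaction. This interaction also uses the Il25 KO libraries that chose the genes. None of the 11742 genes passed it with edgeR (0%), 572 had an unadjusted p under 0.05 and DESeq2 called 1. Pecam1 had an interaction of -0.62 ± 0.290 (adjusted p = 0.999 with edgeR). Cells of the design at 0 counts leave the interaction of Alpk3 and Slc52a3 without a usable value.

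In TT over TS, estimated from Alox5 KO and WT, none of the 11742 genes passed with edgeR's quasi-likelihood test (0%), 838 had an unadjusted p under 0.05 and DESeq2 called 3. The 6 genes had adjusted p between 0.743 and 0.933, with log2 fold changes between -0.33 for Slc52a3 and 0.72 for Pla2g7. The WT libraries also chose the 6 genes, so this contrast is not independent of that choice.

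**Figure D3:**
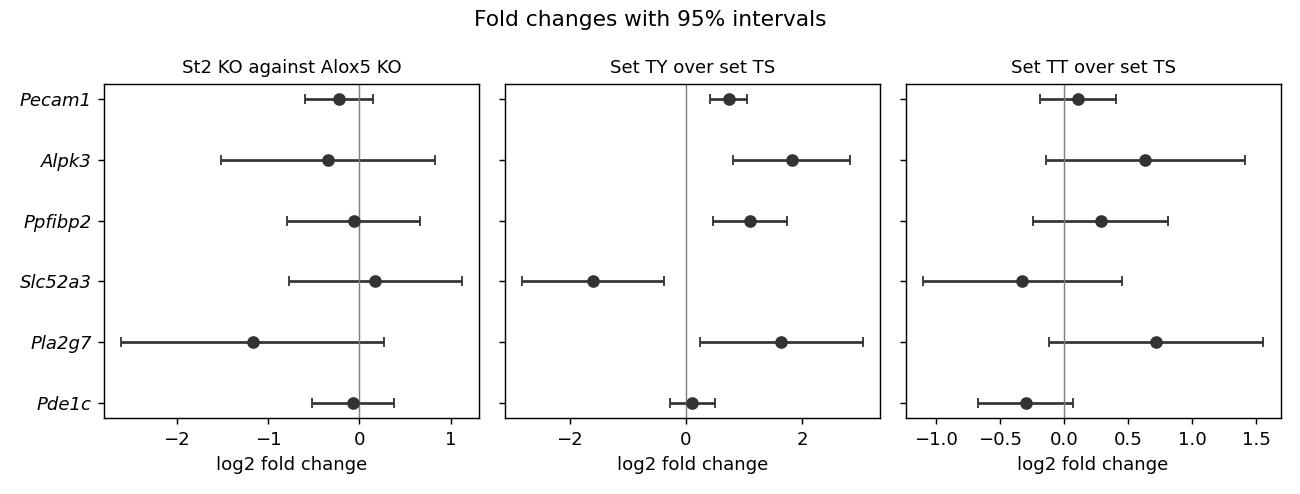
Log2 fold change of each gene with its 95% interval in 3 comparisons: St2 KO against Alox5 KO, set TY over set TS and set TT over set TS. In St2 KO against Alox5 KO all 6 intervals include 0. In TY over TS the intervals of 5 genes do not, with none past the adjusted threshold. All 3 comparisons draw on Il25 KO or WT libraries, which chose the genes.

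Chromosomal neighbours of the 6 genes were read in the same comparison. Of the 94 tested genes within 1 Mb of the 6, 2 passed in Il25 KO against WT (2.13%, beside 0.417% of all tested genes), and their median log2 fold change was 0.06, against 0.00 over all tested genes. Both lie near Pecam1, which has 31 tested neighbours. Cd79b, a chain of the B cell receptor that lies 339 kb away, had 67.0, 89.5, 116 and 102 CPM in Il25 KO, against 143, 175, 199 and 183 CPM in WT, a log2 fold change of -1.07 ± 0.160 (adjusted p = 0.0019 by edgeR's quasi-likelihood test with Benjamini-Hochberg adjustment). Tanc2, which encodes a synaptic scaffold protein and lies 725 kb away, was higher in Il25 KO, with 310.2, 347, 305 and 332 CPM, against 231, 211, 196 and 215 CPM in WT (0.73 ± 0.141, adjusted p = 0.0223 by the same test). The nearest gene to Pecam1, Milr1, an inhibitory receptor gene known from mast cells, lies 0.598 kb away and had -0.72 ± 0.435, with 17.9 ± 7.52 CPM in Il25 KO and 33.2 ± 11.2 CPM in WT (adjusted p = 0.662 by edgeR).

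None of the 36 tested neighbours of Alpk3, 13 of Slc52a3, 7 of Pla2g7, 6 of Pde1c or the 1 of Ppfibp2 passed. Zfp592, 12.4 kb from Alpk3, had 128 ± 8.85 CPM in Il25 KO and 122 ± 9.71 CPM in WT. Fam110a, 16.3 kb from Slc52a3, had 112 ± 55.5 CPM in Il25 KO and 82.0 ± 17.9 CPM in WT. Slc25a27, a mitochondrial carrier gene 29.7 kb from Pla2g7, had 12.2 ± 3.62 CPM in Il25 KO and 9.40 ± 6.31 CPM in WT. Each of these 3 differences was smaller than the larger SD of its groups.

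**Figure D4:**
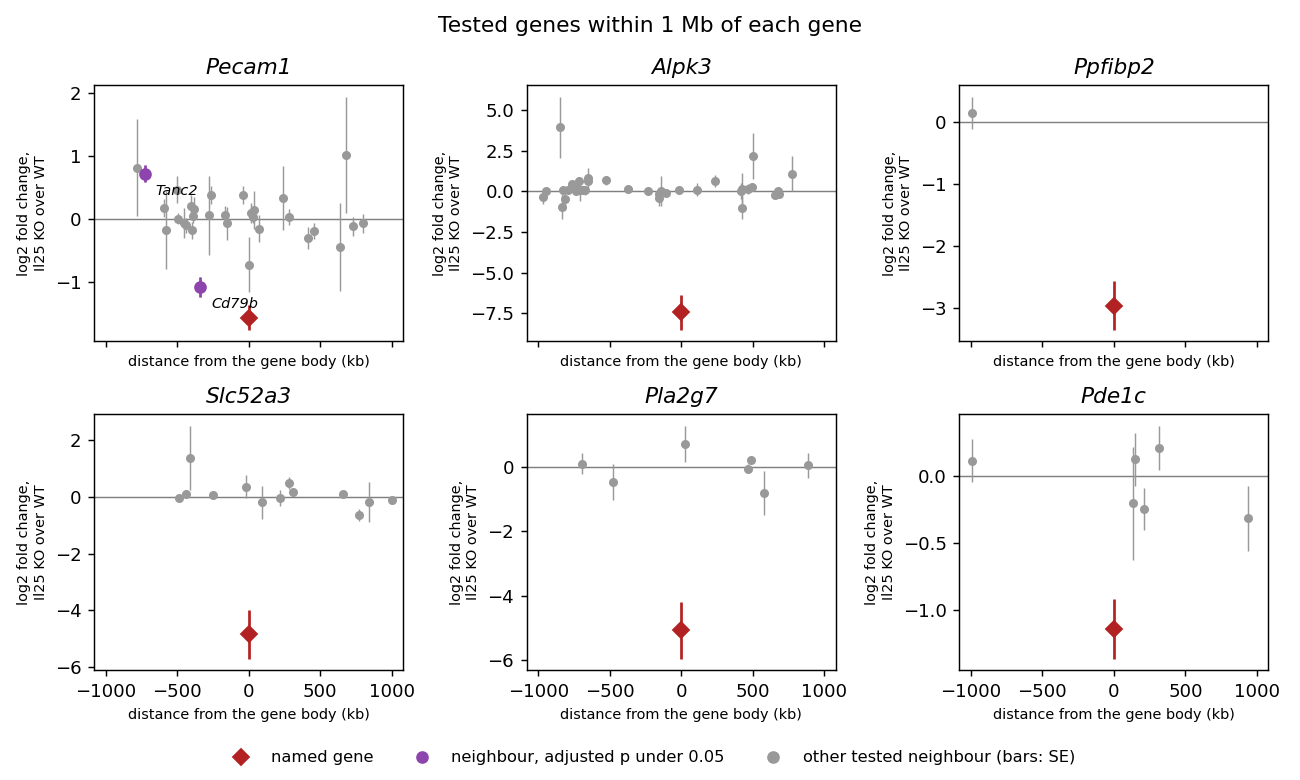
Log2 fold change of Il25 KO over WT for each gene and for all tested genes within 1 Mb, by distance from the gene body in kb (bars are SE). The neighbours range from -1.07 to 3.94, and those that passed the threshold are Cd79b (-1.07) and Tanc2 (0.73), both near Pecam1.

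Relatives and partners of the 6 genes were read from lists chosen with earlier results of these data known. In none of them did a gene other than the 6 pass in Il25 KO against WT, beside 0.417% of all tested genes. Among liprins and their LAR-family phosphatases 3 others were tested, with a median log2 fold change of -0.04. Ppfia1, the most abundant other, had 235 ± 70.5 CPM in Il25 KO and 197 ± 32.1 CPM in WT, and Ppfibp1, which encodes liprin beta 1, had 22.0 ± 9.05 CPM in Il25 KO and 24.8 ± 6.08 CPM in WT. Of the alpha kinases, 3 others were tested, and Trpm7, a channel with a kinase domain, had 231 ± 25.3 CPM in Il25 KO and 223 ± 6.13 CPM in WT.

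For riboflavin, 5 other genes were tested. Slc52a2, the other riboflavin transporter measured, had 53.1 ± 7.22 CPM in Il25 KO and 44.2 ± 10.8 CPM in WT, and Rfk, the kinase that makes FMN from riboflavin, had 146 ± 23.3 CPM in Il25 KO and 138 ± 14.5 CPM in WT. Among 7 other genes of platelet-activating factor metabolism, Lpcat2, an enzyme of its synthesis, had 214 ± 23.3 CPM in Il25 KO and 153 ± 33.3 CPM in WT (log2 fold change 0.42 ± 0.183, adjusted p = 0.479 by edgeR's quasi-likelihood test). The receptor gene Ptafr had a mean of at most 0.102 CPM in any genotype and was not tested.

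Of 13 other cyclic nucleotide phosphodiesterases, Pde4b was the most abundant, with 481 ± 47.3 CPM in Il25 KO and 418 ± 31.8 CPM in WT. The closest relatives of Pde1c were scarce: Pde1b had 6.44 ± 7.24 CPM in Il25 KO and 6.19 ± 3.74 CPM in WT, and Pde1a was not tested. All 3 calmodulin genes were abundant, with Calm2 at 236 ± 10.95 CPM in Il25 KO and 259 ± 13.7 CPM in WT. Among 8 tested partners of Pecam1 and adhesion genes of leukocyte junctions, Cd38, a ligand of PECAM1, had 39.2 ± 7.79 CPM in Il25 KO and 60.7 ± 18.6 CPM in WT (log2 fold change -1.002 ± 0.381, adjusted p = 0.388 by edgeR's quasi-likelihood test). Icam2 had 168 ± 15.7 CPM in Il25 KO and 137 ± 6.56 CPM in WT.

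None of the 18 genes of IL-25 reception and its downstream pathway passed either. Il17rb, which encodes the IL-25 binding receptor chain, had 961 ± 71.6 CPM in Il25 KO and 956 ± 58.3 CPM in WT.

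Several of the 6 genes are known as markers of other cells, so the marker lists of those cells were read beside them. Of 10 endothelial markers, 7, among them Cdh5, Cldn5, Plvap and Tie1, had 0 counts in all 16 libraries. The summed list was 0 to 3.24 CPM in Il25 KO and 0 to 0.386 CPM in WT. Pecam1 was at 129.8 CPM or above in WT, and the part of endothelial cells in its values was not tested. The 10 macrophage markers summed to 1.08 to 37.1 CPM in Il25 KO, where library 3 was highest, and to 3.09 to 4.14 CPM in WT, with Fcgr1 at 0 in all libraries. In WT the summed macrophage list was below Pla2g7 in each library, and Il25 KO library 3, with the highest macrophage sum, had 0 counts of Pla2g7; the part of macrophages in the values was not tested.

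Of the platelet list of 6 markers, Ppbp and Gp1bb were at 0 in all libraries and Pf4 had 2 counts in 1 library. Its sum, 274 to 395 CPM in Il25 KO and 346 to 392 CPM in WT, was nearly all Itgb3. The part of platelets in the values was not tested. The 8 B and plasma cell markers summed to 559 to 909 CPM in Il25 KO and 791 to 1012 CPM in WT, with 1 lower call, Cd79b; the part of these cells in the values of the 6 genes was not tested. The epithelial list was 322 CPM in Il25 KO library 1, 26.0 to 34.6 CPM in the other Il25 KO libraries and 32.4 to 75.2 CPM in WT; its part in the values was not tested. Dendritic markers, 7 in number, summed to 18.7 to 110.4 CPM in Il25 KO and 20.8 to 68.4 CPM in WT.

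Across the 16 libraries, the gene most like each of the 6 was found as the tested gene with the smallest root mean square difference of log2(CPM + 1) after centring. For Pecam1 these were Itpr3, a calcium channel of the endoplasmic reticulum (difference 0.241), 2510009E07Rik (0.251) and Cd79b (0.256), against 0.678 for the median tested gene and 0.598 for a gene with no variation. For Pde1c they were Cd72, a lymphocyte receptor gene (0.279), Nup54 (0.284) and Tstd3 (0.291), against a median of 0.570 and 0.483 for no variation. Pla2g7 was closest to Alpk3 (0.931), followed by Acoxl (1.06) and Kmo (1.07), against a median of 1.90 and 1.88 for no variation.

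Alpk3 was closest to the ribosomal protein gene Rpl26 (0.709), whose reads can be split with pseudogene copies, then Gm26782 (0.866) and Rpgrip1 (0.876), against a median of 1.66 and 1.64 for no variation. Slc52a3 was closest to Gm43305 (1.06), Nlrp1b (1.20) and Rpl26 (1.35), against a median of 2.15 and 2.14 for no variation, and Ppfibp2 to Gm11454 (0.888), Mrm2 (0.930) and Tacc3 (0.943), against a median of 1.59 and 1.58 for no variation. Likeness here includes the low Il25 KO values by which the genes were chosen, and it describes these libraries.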

How the data were processed

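RNA of sorted duodenal ILC2 was sequenced in 16 Nextera XT libraries, a chemistry without strand information. The authors deposited whole-number counts per gene, not scaled for depth or length. The submitters' processing notes name GRCm38, HTSeq 0.4.1, STAR 2.4.2a, FastQC 0.11.3 and Picard 1.134, without settings or annotation release.

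Of 53471 gene rows, 6 with a repeated identifier were dropped. Rows with no symbol held 0.184% of the counts and no column lay outside the 16 libraries. CPM used column totals (median 2625205.5), and RPKM the exon lengths of GENCODE release M21, which held 99.6% of the identifiers. Counts were fitted with the quasi-likelihood test of edgeR 4.0.16 in R 4.3.3 (TMM scaling, default expression filter, 11742 genes kept, all 6 members among them), with genotype and sample-code set as terms and Benjamini-Hochberg adjustment at 0.05. Intervals on log2 fold changes used the moderated degrees of freedom. The procedure was also run on simulated counts. The outcome of that run is not given here, and no result rests on it. Intervals on counts and floors of 3 counts cover counting error only.

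The members and gene lists were chosen with earlier results of these data known. Besides the 6 members, the text names the 3 most similar genes to each, called and nearest neighbours, the most abundant and any called gene of each list, and genes at the threshold. Some others, named among near-absent genes and list members, were picked after their values were seen. Alternatives were DESeq2 1.42.0 (test and size factors), column totals, no filter, edgeR's legacy mode, no set term, fewer libraries, a replicate block and TMM-scaled CPM.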

Additional observations from a re-analysis of the deposited data

Results flagged for a closer look

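In 24 groups of 4 libraries (6 genes in 4 genotypes), 3 had a library whose gap to the nearest of the others, divided by the group's range, was above Dixon's 95% critical value; chance alone gives this in about 5% of groups with no ties, a rate that does not hold where the other libraries are all at 0, as for Alpk3 and Slc52a3 in Il25 KO. Alpk3 had 0.359 CPM in Il25 KO library 4, which is 1 count, with 0 in the other Il25 KO libraries. Slc52a3 had 3.67 CPM in Il25 KO library 2, which is 10 counts, with 0 in the other Il25 KO libraries. Pla2g7 had 72.9 CPM in St2 KO library 4, against 11.5 to 20.8 CPM in the other St2 KO libraries.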

How the results depend on the processing

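The count of genes called in Il25 KO against WT was 49, and it was 82 with DESeq2's test, 95 with no set term, 9 with only these genotypes fitted and 9 in set TS alone; leaving out 1 library gave 31 (without WT library 2) to 53. All 6 members passed with DESeq2 and with no set term, 1 (Ppfibp2) with only these genotypes and 0 in set TS. Their signs were the same in all 25 alternatives. These fits reuse Il25 KO and WT libraries that chose the members, so the members' calls and signs are a description. For St2 KO against Alox5 KO, 57 became 100 with DESeq2, 122 with no set term, 31 with only these genotypes and 19 in set TS, and 27 (without St2 KO library 2; 33 without Alox5 KO library 2) to 64 with 1 library left out, with 0 members in each. Set TY over TS gave 16 and with DESeq2 77, and 11 to 22 with 1 library left out. Set TT over TS gave 0 and with DESeq2 3 (0 to 1 with 1 library left out), and the interaction 0 and 1 (0 to 2). The causes were not tested; the smaller fits hold fewer libraries. None of the 24 mean levels moved by more than its SD with TMM-scaled totals. Values of genes at or near 0 counts are limited by depth.

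A replicate block gave 41 calls in Il25 KO against WT and 51 in St2 KO against Alox5 KO, with the same number of members called, and the set contrasts cannot be estimated with it. Deviations of 24 same-numbered pairs correlated between -0.0788 and 0.197 (median 0.0142), with 3 pairs over 0.1. Some of these pairs cross the sample-code sets, and low correlations cannot exclude that replicate numbers pair the libraries.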
